A study of Mus musculus with 36 samples.

Results

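The 59 genes described here encode proteins of the cell division cycle, from the G1/S transition and DNA replication to mitosis and cytokinesis. They were taken by gene name from a named list, and all 59 were found among the 12795 genes of the deposited count table. The table covers 36 polyA RNA-seq libraries of flow-sorted mouse cardiac macrophages. Per the labels, every animal carried Cx3cr1-er-Cre, a tamoxifen-inducible Cre recombinase driven by the promoter of the chemokine receptor gene Cx3cr1, and Td-Tomato-LoxSTOP, a red fluorescent reporter. TFEB-TG animals also carried TFEB-LoxP-STOP, a cassette that yields TFEB, a transcription factor of lysosome formation, once Cre has removed its stop element, and TFEB-wt animals lacked it. All animals received tamoxifen for 7 days and then 90 minutes of cardiac ischemia, and the cells were sorted 7 days after the injury, so no uninjured heart stands beside them. The libraries named mac-TFEB are TFEB-TG cells with Cre, and those named CX3CR1-Cre are TFEB-wt cells with Cre. Each stands beside Cre-neg cells of its own genotype, in a CCR2pos and a CCR2neg fraction. There were 4 libraries per TFEB-TG group and 5 per TFEB-wt group, 8 groups in all. What set Cre-neg cells apart in animals that carry the Cre and how old the animals were is not given in the sources read. Each genotype's label numbers (1 to 4, or 1 to 5) recur in its 4 groups. The labels do not say that libraries came from separate animals, so p-values measure the spread between these libraries, which may be technical.

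As background, a cell that starts to divide passes the G1/S transition when E2F transcription factors switch on the genes of DNA synthesis, and the MCM helicase, loaded onto replication origins by Cdc6 and Cdt1, opens the DNA. Later, FOXM1 and the MuvB complex switch on the mitotic genes, Cdk1 with its cyclins drives entry into mitosis, and kinesins, kinetochore proteins and condensin sort the chromosomes before the daughter cells separate. In the heart, CCR2-negative macrophages are known to renew largely by division in place, whereas CCR2-positive macrophages are replenished by blood monocytes.

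Promoter letters were counted for genes of S-phase and of mitotic roles. RefSeq windows (GRCm38.p6) of 300 bases, from 250 before to 50 after the start, were found for 49 of the 59 genes, in 53 windows. Ccne2, Gins2, Mcm4, Ccna2, Aurkb, Foxm1, Tpx2, Stmn1, Smc4 and Kif20a have no entry. Both strands were searched for the cell cycle homology region (CHR, TTTGAA, the letters bound by MuvB), for E2F letters (TTTGGCGC, TTTCGCGC, TTTCCCGC or TTTGCCGC) and for the CCAAT box bound by NF-Y. The CHR letters were in 54.7% of the members' windows, against 12.5% of the 12479 windows of all measured genes. They were in 27 of 34 windows of genes with mitotic roles (79.4%), among them all 7 windows of cytokinesis genes, and in 2 of 19 windows of genes with S-phase roles (10.5%). E2F letters were in 20.8% of the members' windows, against 3.82% of all windows. They were in 4 of 34 windows of genes with mitotic roles (11.8%) and in 7 of 19 of those with S-phase roles (36.8%), which were 6 of 9 windows of replication licensing and fork genes, 1 of 6 of G1/S control genes and 0 of 4 of nucleotide supply genes. CCAAT boxes were in 73.6% of the members' windows, against 37.5% of all. A match describes letters and not a bound site. The 120 bases before the start of 5 genes are shown because these genes recur in the results; capitals mark E2F, CHR or CCAAT letters on either strand, and all 5 lie on the minus strand. In Mcm6 2 E2F words on opposite strands overlap at the first site.
Mcm6, chr1:128359706-128359825: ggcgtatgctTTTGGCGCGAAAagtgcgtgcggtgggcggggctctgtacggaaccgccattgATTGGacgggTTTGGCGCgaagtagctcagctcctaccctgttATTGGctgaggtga
Mki67, chr7:135716380-135716499: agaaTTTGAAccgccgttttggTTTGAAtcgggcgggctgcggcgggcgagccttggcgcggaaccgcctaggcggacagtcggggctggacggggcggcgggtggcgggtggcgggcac
Top2a, chr11:99024190-99024309: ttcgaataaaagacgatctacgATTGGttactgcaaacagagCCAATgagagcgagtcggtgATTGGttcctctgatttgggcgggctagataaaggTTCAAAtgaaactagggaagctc
Cdk1, chr10:69352913-69353032: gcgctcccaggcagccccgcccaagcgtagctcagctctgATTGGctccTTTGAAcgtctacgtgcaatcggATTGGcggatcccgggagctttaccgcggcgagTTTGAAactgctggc
Ccnb2, chr9:70421555-70421674: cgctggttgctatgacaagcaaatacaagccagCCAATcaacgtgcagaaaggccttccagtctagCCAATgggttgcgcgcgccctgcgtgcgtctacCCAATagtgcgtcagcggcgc
The E2F letters of Mcm6, a subunit of the MCM helicase, stand in a gene of the S-phase class, and its stretch also shows CCAAT letters. The CHR letters of Mki67, Top2a and Cdk1 stand in genes of the mitotic class, and the stretches of Top2a and Cdk1 also show CCAAT letters. Further matches lie outside the stretches, among them CCAAT letters of Mki67 at -188, -166 and -141 and E2F letters of Cdk1 at -131. The stretch of Ccnb2 shows CCAAT letters, and its CHR letters lie outside the stretch, at -167 and 5 relative to the start.

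The libraries held 13797484 to 32645783 counts each, of which 17017 to 67010 fell on the 59 genes. The macrophage markers Adgre1, Cd68, Csf1r, Fcgr1, Mertk, Lyz2, Itgam and C1qa were above 0 in all 36 libraries. Tfeb is the gene whose product the cassette yields. It was at 60.1 to 280 CPM (counts scaled to the library's total) in mac-TFEB CCR2pos libraries, against 4.18 to 11.0 CPM in CX3CR1-Cre CCR2pos libraries. In mac-TFEB CCR2neg libraries it was at 67.5 to 357 CPM, against 6.85 to 9.38 CPM in CX3CR1-Cre CCR2neg libraries. TFEB-TG Cre-neg libraries also had more of it (12.7 to 51.3 CPM over both fractions) than TFEB-wt Cre-neg libraries (4.41 to 11.9 CPM). Xist, which female cells transcribe from the silenced X, passed 10 CPM in all libraries of TFEB-TG 3, TFEB-TG 4 and TFEB-wt 2, 3, 4 and 5. No library of TFEB-TG 1, TFEB-TG 2 or TFEB-wt 1 did. The library TFEB-TG 1 CCR2neg Cre-neg stood apart, with 510.7 CPM summed over cardiomyocyte markers and 4086 CPM over monocyte markers. Of the monocyte sum 3813 CPM were Chil3 alone. Ly6c2 was at 1.52 CPM in this library, against 1.93 to 2.56 CPM in the others of its group. Calls that rest on this library are also given without it.

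All 59 genes were detected, and the lowest count was 1 read, for E2f8 in 1 library. On a scale of CPM per kilobase of exon, averaged over the 36 libraries, Pcna (the sliding clamp of DNA polymerase) was highest at 31.1, followed by the helicase subunit Mcm3 (25.1), the mitotic cyclin Ccnb2 (20.3), Rrm2 (19.7; the small subunit of ribonucleotide reductase), the transcription factor E2f1 (14.8) and Mcm5 (13.2). The DNA repair gene Brca1 (0.400), the spindle kinesin Kif15 (0.499), the kinetochore protein Cenpf (0.654) and the repressor E2f8 (0.661) were lowest. The genes also differed in how far their level moved across libraries. Pcna stayed between 60.1 and 86.7 CPM, so its highest library was 1.44-fold its lowest, whereas the checkpoint kinase Bub1 spanned 16.3-fold and the condensin subunit Ncapg 13.3-fold.

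The summed level of the 59 genes was higher in TFEB-TG than in TFEB-wt groups and higher in cells with Cre than in Cre-neg cells. In the CCR2pos fraction it averaged 1775 ± 410 CPM in mac-TFEB (SD, n = 4), 1287 ± 190 CPM in CX3CR1-Cre (n = 5), 1450 ± 271 CPM in TFEB-TG Cre-neg (n = 4) and 1068 ± 76.5 CPM in TFEB-wt Cre-neg cells (n = 5). In the CCR2neg fraction the same groups averaged 2059 ± 476, 1363 ± 225, 1563 ± 376 and 1100 ± 116 CPM, and TFEB-TG Cre-neg cells 1613 ± 444 CPM (n = 3) without the library that stands apart. In both fractions mac-TFEB library 2 lay within the range of the CX3CR1-Cre libraries, and the TFEB-TG groups had the larger SDs. The means were further apart for the 39 genes of mitotic roles than for the 20 genes of S-phase roles, a difference without a test of its own. In CCR2neg cells mitotic genes summed to 1173 ± 288 CPM in mac-TFEB and 726 ± 138 CPM in CX3CR1-Cre cells, whereas S-phase genes summed to 886 ± 193 CPM and 637 ± 91.5 CPM in the same groups (SD, n = 4 and 5). In bulk RNA of sorted cells, fewer cells of a type and less RNA per cell cannot be told apart, and the same holds for more dividing cells and more message in each.

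Single genes took different shares in this. The helicase subunits Mcm2 to Mcm7 summed to 352 ± 65.1 CPM in mac-TFEB, 282 ± 51.3 CPM in CX3CR1-Cre, 312 ± 47.7 CPM in TFEB-TG Cre-neg and 246 ± 21.9 CPM in TFEB-wt Cre-neg CCR2pos cells. In CCR2neg cells they summed to 386 ± 88.3, 282 ± 46.8, 299 ± 54.0 and 236 ± 29.0 CPM in the same order (SD, n = 4, 5, 4 and 5). Ccnb1, the cyclin that drives entry into mitosis with Cdk1, was lower in level and relatively further apart between groups. Its CCR2pos means were 10.5 ± 4.97, 4.94 ± 1.38, 7.06 ± 3.65 and 3.48 ± 1.54 CPM and its CCR2neg means 12.5 ± 4.90, 6.65 ± 2.22, 8.72 ± 4.02 and 4.89 ± 0.954 CPM, group by group as above. Pcna, by contrast, averaged 69.9 to 79.8 CPM in all 8 groups, with SDs of 2.30 to 8.14 CPM.

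**Figure D1:**
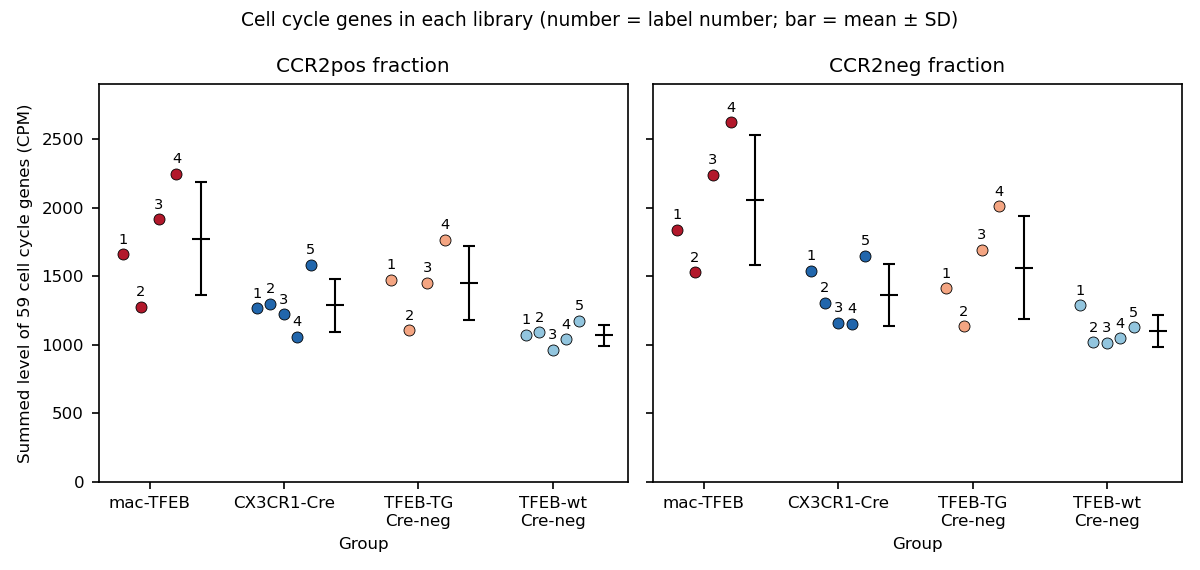
Summed CPM of the 59 genes (y axis) in each of the 36 libraries, by group (x axis) and fraction (panels); numbers are label numbers, and the bar beside each group is mean ± SD. Library 4 is highest and library 2 lowest in all 4 TFEB-TG groups, and the highest level is the 2623 CPM of mac-TFEB 4 in the CCR2neg panel.

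The first question of the design is how mac-TFEB cells differ from CX3CR1-Cre cells within a fraction. These cells differ in genotype and label as well as in Tfeb, which this comparison alone cannot tell apart. In CCR2neg cells 4 of the 59 genes rose and none fell, by edgeR's quasi-likelihood test with Benjamini-Hochberg adjustment over all genes, where 0.922% of all genes rose and 0.453% fell. They were Uhrf1, which brings maintenance methylation to newly copied DNA, Rrm2, which supplies deoxynucleotides, Aurka, the Aurora kinase of the spindle poles, and Cenpe, a kinetochore motor. The median log2 fold change of the 59 genes was 0.64, against 0.01 for all genes, 57 of the 59 were above 0, and 40 had an unadjusted p under 0.05. By role, medians ran from 0.35 for replication licensing and fork genes to 0.82 for mitotic cyclins and kinases, with 0.66 for G1/S control, 0.65 for nucleotide supply, 0.54 for kinetochore and checkpoint, 0.75 for spindle and kinesins and 0.63 for both condensin with chromosome structure and cytokinesis.

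The called genes separated the groups to different degrees. Uhrf1 (chromosome 17, 56303321 to 56323486, GRCm38) was at 22.6, 23.9, 37.3 and 40.1 CPM in mac-TFEB CCR2neg libraries 1 to 4, against 18.3, 14.6, 9.71, 8.74 and 21.5 CPM in CX3CR1-Cre CCR2neg libraries 1 to 5. All mac-TFEB values lay above all CX3CR1-Cre values, and the log2 fold change was 1.09 ± 0.27 (SE; adjusted p = 0.0314, edgeR). Aurka (chromosome 2, 172356190 to 172370535) was at 19.2, 13.8, 21.5 and 22.6 CPM in mac-TFEB libraries, against 12.6, 6.40, 10.7, 12.5 and 12.0 CPM in CX3CR1-Cre libraries. Its groups did not overlap either, with a log2 fold change of 0.82 ± 0.20 (adjusted p = 0.0283, edgeR). Cenpe (chromosome 3, 135212537 to 135273611) was at 30.0, 22.3, 32.5 and 43.7 CPM in mac-TFEB libraries, against 22.6, 12.9, 16.4, 14.8 and 19.7 CPM in CX3CR1-Cre libraries. Here mac-TFEB library 2 lay just under CX3CR1-Cre library 1, and the log2 fold change was 0.89 ± 0.23 (adjusted p = 0.0388, edgeR). Rrm2 (chromosome 12, 24708241 to 24714146) was at 59.8, 50.1, 100 and 136 CPM in mac-TFEB libraries, against 51.7, 36, 36.1, 33 and 52.6 CPM in CX3CR1-Cre libraries. Its high values were those of mac-TFEB libraries 3 and 4, library 2 lay within the CX3CR1-Cre range, and the log2 fold change was 1.05 ± 0.28 (adjusted p = 0.0499, edgeR).

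Other genes of similar fold change did not pass. Mki67, the proliferation marker that coats mitotic chromosomes (chromosome 7, 135689784 to 135716361), was at 44.5, 33.7, 63.1 and 73.0 CPM in mac-TFEB CCR2neg libraries, against 28.8, 23.9, 28.6, 23.4 and 35.7 CPM in CX3CR1-Cre CCR2neg libraries (log2 fold change 0.93 ± 0.27, adjusted p = 0.0880, edgeR). Top2a, the topoisomerase that untangles sister chromatids (chromosome 11, 98992943 to 99024189), was at 101, 64.8, 127 and 143 CPM, against 71.2, 51.7, 33.2, 41.2 and 80.4 CPM in the same groups (0.97 ± 0.28, adjusted p = 0.0814, edgeR). In both genes mac-TFEB library 2 lay within the CX3CR1-Cre range and libraries 3 and 4 were high. Cdk1 (log2 fold change 1.04 ± 0.30, adjusted p = 0.0772, edgeR) had the same pattern, with 22 CPM in mac-TFEB library 2 and 22.8 CPM in CX3CR1-Cre library 1. The lowest fold changes belonged to Cdt1, the licensing factor (log2 fold change -0.46), and to the chromatin protein Hmgb2 (-0.02). Uhrf1, Aurka and 5 uncalled genes (E2f8, Mcm7, Nusap1, Prc1 and Kif20a) had every mac-TFEB library above every CX3CR1-Cre library, which makes 7 of 59, where 3.40% of all genes did.

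The calls in CCR2neg cells rested on single libraries, and the counts with a library left out stand without the share of all genes. None was left without mac-TFEB library 3 or 4 or without CX3CR1-Cre library 2 or 3, 1 was left without CX3CR1-Cre library 4, 2 without CX3CR1-Cre library 5, and 10 genes were called without mac-TFEB library 2. Of the 8 macrophage markers C1qa was called lower in mac-TFEB CCR2neg cells, of 8 dendritic cell markers Batf3, and none of the monocyte, resident macrophage, erythroid, T and NK cell, B cell, neutrophil, cardiomyocyte, fibroblast, endothelial, mural or dissociation and stress markers was called. In CCR2pos cells none of the 59 genes was called higher (0.0156% of all genes were) or lower (0.0234%), while 25 had an unadjusted p under 0.05 by edgeR and DESeq2 called none. The median log2 fold change of the 59 there was 0.46, against -0.00 for all genes, and 56 were above 0. The smallest p belonged to Ncapd2, a condensin subunit, at 32.7, 24.0, 26.9 and 37.1 CPM in mac-TFEB CCR2pos libraries, against 16.1, 17, 14.1, 16.2 and 20.4 CPM in CX3CR1-Cre CCR2pos libraries. Its groups did not overlap, and the log2 fold change was 0.78 ± 0.20 (adjusted p = 0.364, edgeR). Ncapd2 was 1 of 4 genes of which this held (with Cenpa, Kif11 and Smc4), against 2.23% of all genes. The change in mac-TFEB over CX3CR1-Cre cells was then compared between the fractions (CCR2pos minus CCR2neg). Without a block, this difference was called for none of the 59 genes (0.00% of all genes). It had an unadjusted p under 0.05 for none, and its median was -0.16. A fit with the label as a block pairs the same-numbered libraries of a genotype. With this block none was called either, and 5 had an unadjusted p under 0.05 (edgeR). The smallest p was that of Rrm2 (-0.67 ± 0.17, adjusted p = 0.214, edgeR).

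The second question is how the genotypes differ in cells labelled Cre-neg, set by TFEB-TG Cre-neg over TFEB-wt Cre-neg cells. As given above, Tfeb itself was higher in the TFEB-TG libraries of this comparison. In CCR2neg cells 2 genes rose, Cenpe and Kif20a, the kinesin of the central spindle that works in cytokinesis, where 0.0391% of all genes rose, and none fell, where 0.367% did. Cenpe was at 31.2, 12.5, 28.3 and 27.3 CPM in TFEB-TG Cre-neg libraries, against 12.7, 9.81, 14, 8.80 and 10.5 CPM in TFEB-wt Cre-neg libraries. Library TFEB-TG 2 alone lay among the TFEB-wt values, and the log2 fold change was 1.13 ± 0.23 (adjusted p = 0.0254, edgeR). Kif20a was at 33.6, 19.0, 24.6 and 30.9 CPM in TFEB-TG Cre-neg libraries, against 17.5, 12.0, 14.4, 9.11 and 15.1 CPM in TFEB-wt Cre-neg libraries. Its groups did not overlap, and the log2 fold change was 0.97 ± 0.22 (adjusted p = 0.0345, edgeR). Kif20a shares 29.3% of its exonic bases with Cdc23 on the other strand, and with counts that carry no strand the reads of the shared part cannot be told apart.

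The other genes of this comparison did not pass. The median log2 fold change of the 59 in CCR2neg Cre-neg cells was 0.57, and 36 had an unadjusted p under 0.05. The cyclin Ccna2 had the highest log2 fold change (1.31 ± 0.35, adjusted p = 0.0783, edgeR), and Mki67 had 1.06 ± 0.28 (adjusted p = 0.0697, edgeR), with 45.4, 21.2, 45.3 and 64.0 CPM in TFEB-TG Cre-neg against 28.3, 16.5, 24.7, 14.7 and 20.5 CPM in TFEB-wt Cre-neg libraries. Mcm3, Mcm7 and Kif20a had no overlap of the groups, 3 of 59, where 1.00% of all genes had none. Without library TFEB-TG 1 of the Cre-neg CCR2neg group, the one that stands apart, 6 genes were called, and without TFEB-TG 2 there were 5. None was called without TFEB-TG 3, TFEB-TG 4, TFEB-wt 3 or TFEB-wt 5 of these groups, and 1 without TFEB-wt 4. The share of all genes called in these fits is not given. In CCR2pos Cre-neg cells none of the 59 was called by edgeR or DESeq2 (0.0156% of all genes were called higher), 27 had an unadjusted p under 0.05 and the median was 0.51. Ncapd2 again had the smallest p (log2 fold change 0.85 ± 0.20, adjusted p = 0.361, edgeR), and it was 1 of 6 genes without overlap of the groups (with Uhrf1, Cdc6, Aurka, Top2a and Hmgb2), where 1.20% of all genes had none.

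Whether the genotype difference was larger in cells with Cre than in Cre-neg cells was tested directly. Without a block, this difference of the differences was called for none of the 59 genes in either fraction (0.00% of all genes). In that fit none had an unadjusted p under 0.05. The median log2 value of the difference of the differences was -0.01 in CCR2pos and 0.07 in CCR2neg cells. For Cenpe the difference in CCR2neg cells was -0.24 ± 0.33 and for Mki67 -0.13 ± 0.39 (SE). With the label as a block these values were -0.22 ± 0.20 and -0.10 ± 0.17. The block called none of the 59 in either fraction. With it, an unadjusted p under 0.05 was reached by 2 genes in CCR2neg and 0 in CCR2pos cells (edgeR). Neither direction nor absence of a difference is thus shown. Averaged over both fractions, the same difference is tested again below, between the Cre differences of the genotypes. The genotype comparisons with Cre and in Cre-neg cells share no control libraries, but same-numbered libraries recur in both.

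**Figure D2:**
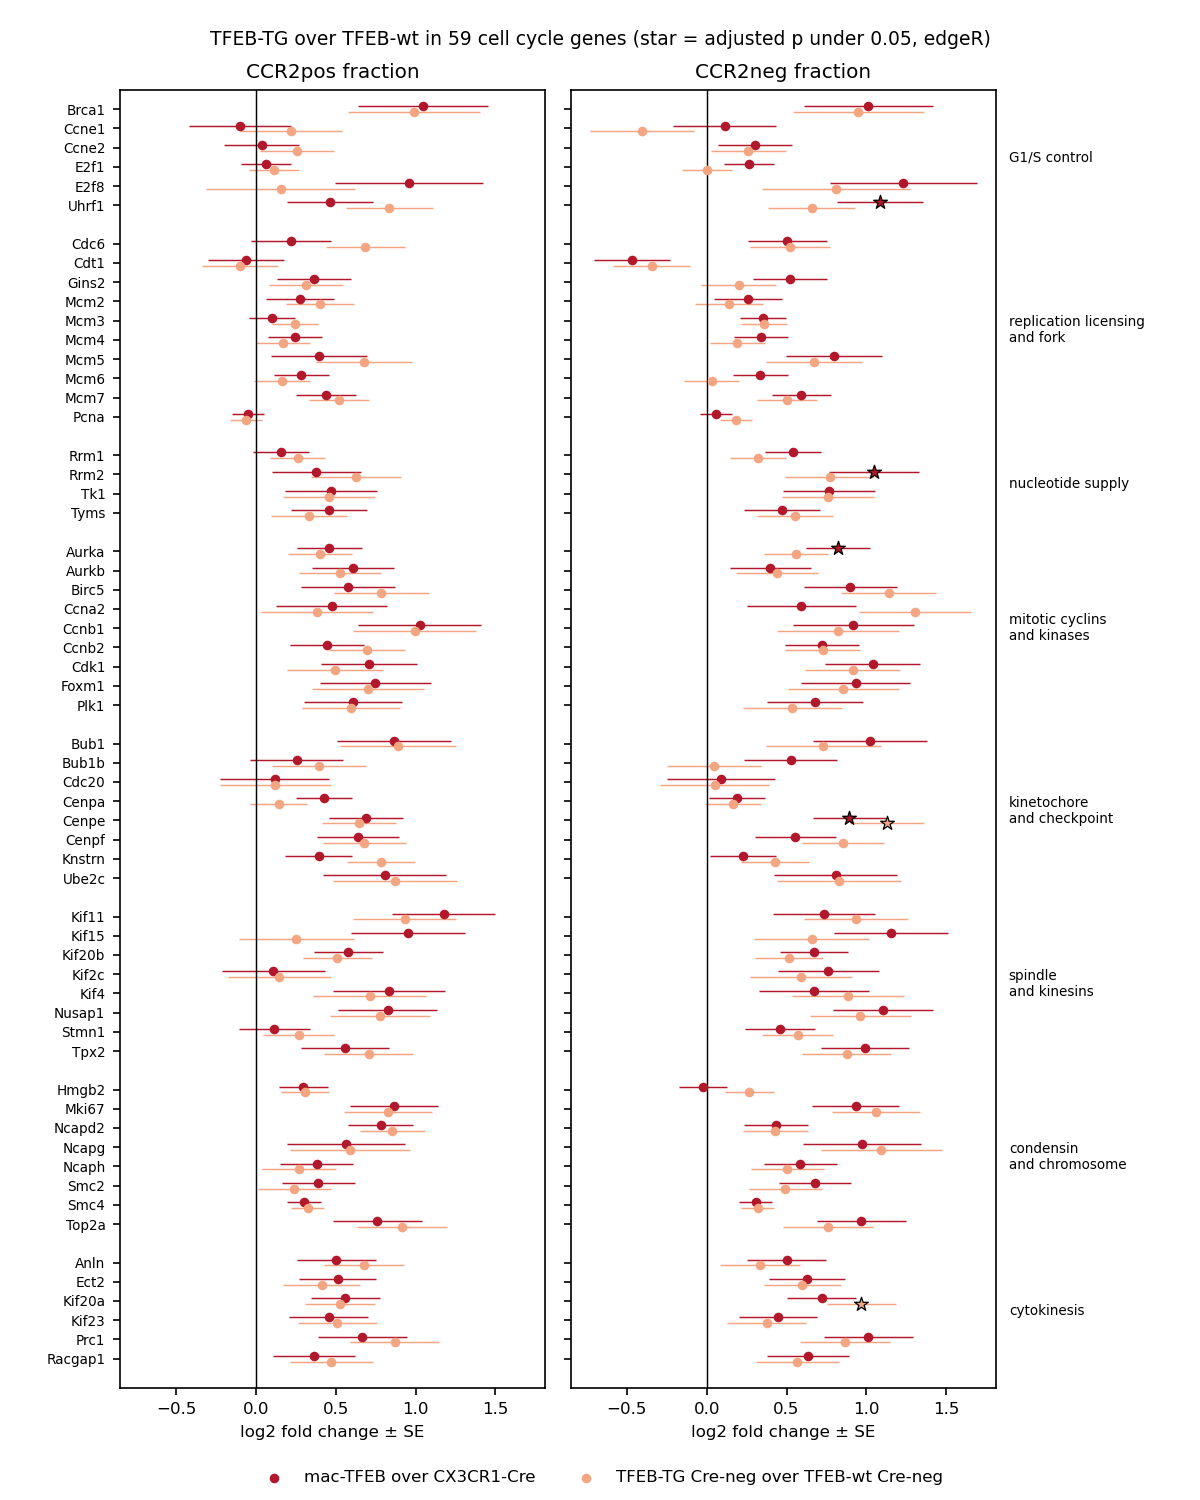
log2 fold change ± SE of TFEB-TG over TFEB-wt libraries (x axis) for each of the 59 genes (y axis, by role) in CCR2pos and CCR2neg cells, with Cre (dark) and in Cre-neg cells (light); stars mark genes called at an adjusted p under 0.05 by edgeR. Most points lie right of 0 in all 4 comparisons, and the stars stand in the CCR2neg panel alone.

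Because same-numbered libraries of a genotype recur in 4 groups, the genotypes were also compared over 9 label sums, 4 of TFEB-TG and 5 of TFEB-wt. None of the 59 genes was called by edgeR in this comparison (0.0157% of the 12774 genes tested were called higher), while DESeq2 called 21 of them (0.713% of all genes were called higher by DESeq2). An unadjusted p under 0.05 was reached by 46 of the 59, against 10.2% of all genes, and the median log2 fold change was 0.58. The smallest p-values belonged to Cenpe (0.88 ± 0.19, adjusted p = 0.326, edgeR) and Kif20a (0.74 ± 0.16), followed by Aurka (0.58 ± 0.14). With TFEB-TG 2 left out 1 gene was called, a count without its share of all genes.

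The labels themselves differed within a genotype. Averaged over its 4 libraries, the summed level of the 59 genes was 1598, 1261, 1825 and 2162 CPM for TFEB-TG 1 to 4, against 1292, 1178, 1091, 1075 and 1385 CPM for TFEB-wt 1 to 5. TFEB-TG 4 was the highest of the 9 labels in 55 of the 59 genes (93.2%), where it was the highest for 12.4% of all genes, and TFEB-TG 2 was the lowest TFEB-TG label in 53 (89.8%), where this held for 29.9% of all genes. TFEB-TG 2 therefore lay among the TFEB-wt labels, while TFEB-TG 1, 3 and 4 lay above all of them. Mki67 averaged 40.3, 23.9, 51.0 and 61.7 CPM over the libraries of TFEB-TG 1 to 4, against 25.1, 20.7, 22.3, 19.1 and 27.6 CPM for TFEB-wt 1 to 5. Ube2c, the ubiquitin-conjugating enzyme that works with the anaphase-promoting complex, had the widest span, with 13.4, 6.33, 15.6 and 21.1 CPM for TFEB-TG 1 to 4, a 3.34-fold range. Ccnb1, the main partner cyclin of Cdk1, spanned 3.01-fold and Rrm2 2.52-fold among TFEB-TG labels, but Pcna 1.15-fold and E2f1 1.21-fold. Cdt1 did not follow this order, with 24.6, 14.6, 15.3 and 13.3 CPM for TFEB-TG 1 to 4.

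**Figure D3:**
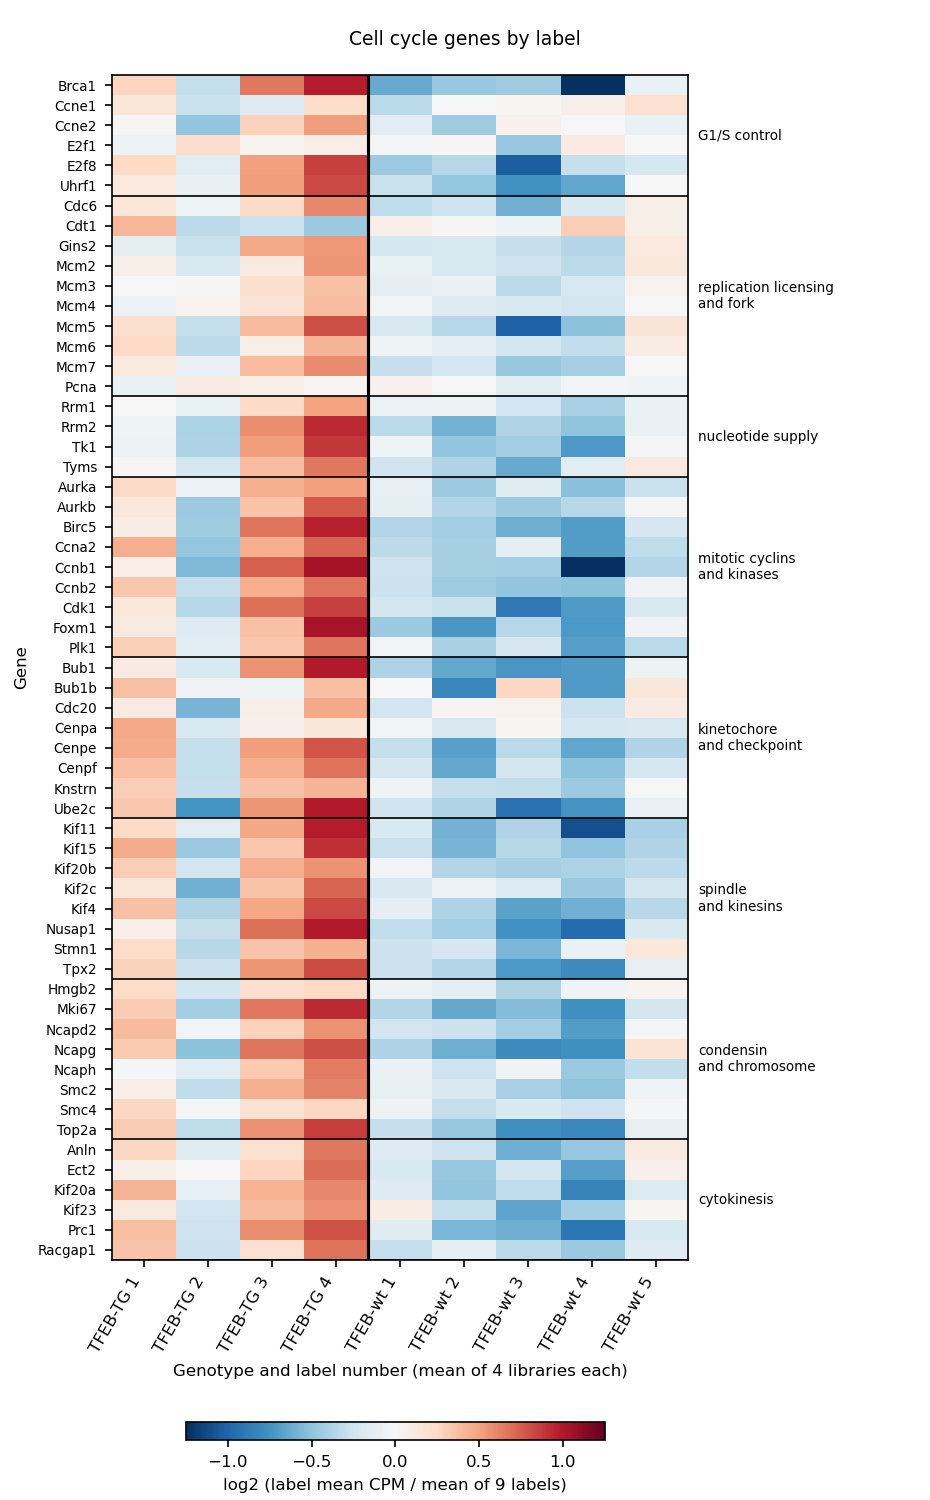
Label means of the 59 genes (y axis, by role) for TFEB-TG 1 to 4 and TFEB-wt 1 to 5 (x axis, 4 libraries each), coloured by the log2 ratio to the mean of the 9 labels. The column of TFEB-TG 4 is the reddest in 55 of 59 genes, TFEB-TG 2 resembles the TFEB-wt columns, and the row of Pcna is nearly white.

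Other measures moved with the label. Tfeb averaged 168 and 150 CPM over the libraries of TFEB-TG 1 and 2. Over those of TFEB-TG 3 and 4, which are also the TFEB-TG labels with Xist, it averaged 53.0 and 41.5 CPM. Between these pairs of labels the summed cell cycle level ran the other way. That sum averaged 1598 and 1261 CPM in TFEB-TG 1 and 2, against 1825 and 2162 CPM in TFEB-TG 3 and 4. Within the first pair, TFEB-TG 1 had more of both. The summed level of 8 T and NK cell markers was 102 to 186 CPM in TFEB-TG 2 and 4.82 to 21.0 CPM in TFEB-TG 1, 3 and 4. In TFEB-wt it was 54.2 to 130 CPM in label 3 and 35.5 to 56.7 CPM in label 4, and 3.08 to 12.8 CPM in labels 1, 2 and 5. The labels with more T and NK cell transcripts were thus those with the lowest cell cycle levels of their genotype. Dissociation and stress markers summed to 8078 CPM on average in TFEB-TG 2, against 7047, 6694 and 6992 CPM in TFEB-TG 1, 3 and 4, and in TFEB-wt to 8055 and 7564 CPM in labels 3 and 4, against 7333, 7372 and 6435 CPM in labels 1, 2 and 5. The part of these measures in the differences between labels and genotypes was not tested.

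Most of the 59 genes moved together from library to library. On log2 CPM with the group means removed, the 1711 pairs of genes had a median correlation of 0.51 over the 36 libraries (range -0.51 to 0.92), and 1594 pairs were above 0. The libraries of a label share a source number, so these points are not independent and no p is given. Birc5 (survivin, of the chromosomal passenger complex) followed the mean of the other members most closely (0.95), then Top2a (0.94), Nusap1, a microtubule bundling protein (0.92), Rrm2 and Mki67 (both 0.90). The least like it were Cdt1 (-0.14), Pcna (-0.01), E2f1 (0.03), the G1 cyclin Ccne1 (0.13) and the centromeric histone Cenpa (0.23). The median of the 12736 other genes against the members' mean was -0.02. The median was 0.49 between genes of S-phase and of mitotic roles, 0.48 among the S-phase and 0.54 among the mitotic genes.

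The third question is how cells with Cre differ from Cre-neg cells of the same genotype and fraction. Same-numbered libraries deviated together here, so the label was also used as a block. The library with Cre had the higher summed level in 18 of 18 pairs, by 1.02-fold to 1.46-fold with a median of 1.27-fold. In the CCR2neg pairs of TFEB-TG 1 to 4 the sums were 1841, 1529, 2241 and 2623 CPM in mac-TFEB, against 1415, 1134, 1692 and 2012 CPM in TFEB-TG Cre-neg libraries. In the CCR2pos pairs of TFEB-wt 1 to 5 they were 1266, 1298, 1224, 1060 and 1585 CPM in CX3CR1-Cre, against 1072, 1091, 964, 1039 and 1174 CPM in TFEB-wt Cre-neg libraries. Without pairing the groups overlap, and with pairing each library with Cre stands above its partner. Ly6c2 and the summed monocyte markers went the other way. Ly6c2, which marks inflammatory monocytes, was lower with Cre in 17 of 18 pairs (all but TFEB-wt 4, CCR2neg). The summed monocyte markers were lower in 17 of 18 (all but TFEB-wt 1, CCR2pos). In the CCR2neg pairs Ly6c2 was at 0 to 3.79 CPM, near the floor. The share of all genes that were lower in as many pairs is not given.

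**Figure D4:**
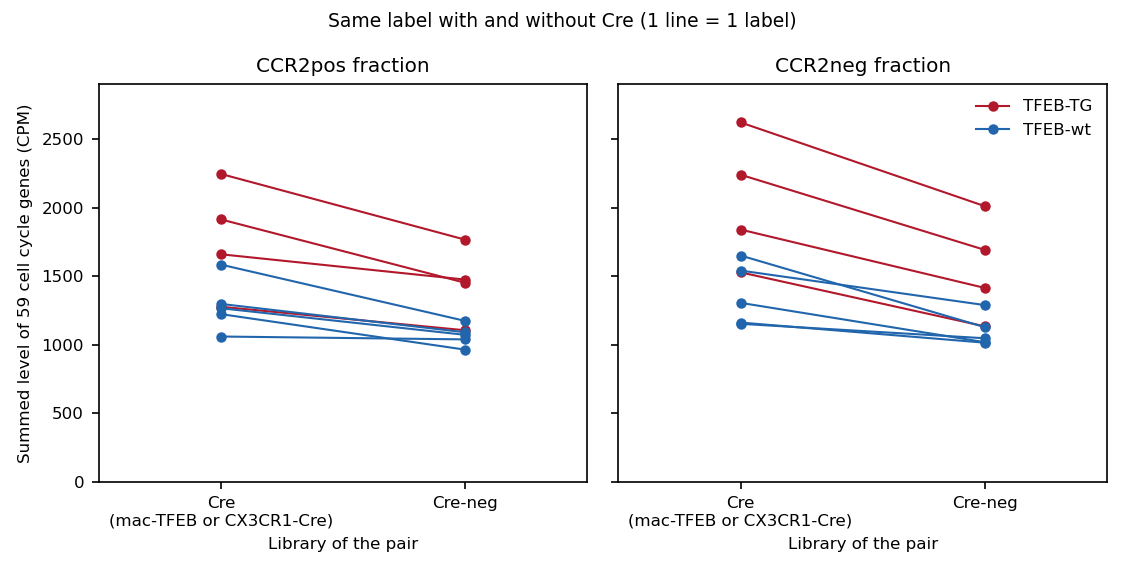
Summed CPM of the 59 genes (y axis) in libraries with Cre (left) and Cre-neg libraries (right) of the same label and fraction, with 1 line per label. All 18 lines fall from left to right, by 1.02-fold at the least (TFEB-wt 4, CCR2pos) and 1.46-fold at the most (TFEB-wt 5, CCR2neg).

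In single comparisons few genes passed without the block. In TFEB-wt CCR2neg cells 1 gene rose, Knstrn (kinastrin, which helps align chromosomes; chromosome 2, 118814003 to 118853957), where 0.969% of all genes rose, and none fell, where 1.63% did. Knstrn was at 17.2, 12.0, 13.1, 10.4 and 17.7 CPM in CX3CR1-Cre CCR2neg libraries, against 9.34, 6.38, 9.02, 9.23 and 7.11 CPM in TFEB-wt Cre-neg CCR2neg libraries. The groups did not overlap, and the log2 fold change was 0.79 ± 0.20 (adjusted p = 0.0218, edgeR). The call was lost without library 2 or 5 of the Cre-neg group or library 1 or 5 of the CX3CR1-Cre group. With the block 17 genes rose in this comparison and none fell, where 3.41% of all genes rose and 4.13% fell. In TFEB-wt CCR2pos cells none passed without the block (0.00782% of all genes; 13 of the 59 had an unadjusted p under 0.05), and with it 5 rose, Rrm2, Ccnb2, Knstrn, Kif20a and the spindle assembly factor Tpx2, where 0.649% of all genes did. In TFEB-TG CCR2neg cells none passed without the block (0.0860% of all genes; 15 of the 59 at an unadjusted p under 0.05), and with it 7 rose, Uhrf1, Mcm5, Mcm6, Rrm2, Knstrn, Nusap1 and Top2a, where 1.23% of all genes did. Without the TFEB-TG 1 Cre-neg library that stands apart the block left 1 of these calls, Mcm6. In TFEB-TG CCR2pos cells none passed by either fit, with 3 and, with the block, 23 of the 59 at an unadjusted p under 0.05, and 0.0156% and 0.0703% of all genes called higher.

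The Cre difference was then averaged over both fractions with the label as a block, a fit added after the data had been seen. In TFEB-TG 25 of the 59 genes rose and none fell, where 1.38% of all genes rose and 1.49% fell. In TFEB-wt 33 rose and none fell, where 4.45% of all genes rose and 4.52% fell. The test of the difference between genotypes called none of the 59 (0.195% of all genes were called higher), with 2 at an unadjusted p under 0.05. In both genotypes 21 genes rose, which is 84.0% of the TFEB-TG calls and 63.6% of the TFEB-wt calls, and 22 rose in neither. Without the block the calls were 0 in TFEB-TG (30 of the 59 at an unadjusted p under 0.05; 0.102% of all genes called higher) and 4 in TFEB-wt (Knstrn, Ncapd2, Smc4 and Kif20a; 1.49% of all genes). Leaving out a label left 7, 6, 7 and 6 calls in TFEB-TG without TFEB-TG 1 to 4 and 15 without TFEB-wt 5, and 16 calls in TFEB-wt without TFEB-wt 5. With only the TFEB-TG 1 CCR2neg Cre-neg library left out, 13 genes rose in TFEB-TG and none fell. Shares of all genes are not given for the counts with a label or library left out.

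By role, each of the 8 classes held calls in both genotypes. Of the 6 cytokinesis genes 5 rose in TFEB-TG and 6 in TFEB-wt. Kif20a had a log2 fold change of 0.51 ± 0.11 in TFEB-TG (adjusted p = 0.00642) and 0.61 ± 0.10 in TFEB-wt (adjusted p = 8.58e-05, edgeR). Of 8 genes of condensin and chromosome structure 5 and 6 rose in TFEB-TG and TFEB-wt, of 8 kinetochore and checkpoint genes 4 and 5, of 9 mitotic cyclins and kinases 3 and 5 and of 8 spindle genes 2 and 3. The spindle genes called in both were Nusap1, at 0.64 ± 0.11 in TFEB-TG (adjusted p = 0.00125) and 0.54 ± 0.11 in TFEB-wt (adjusted p = 0.000791, edgeR), and Tpx2, at 0.53 ± 0.13 and 0.56 ± 0.12 (adjusted p = 0.0155 and 0.00145, edgeR). Cenpe had a log2 fold change of 0.42 ± 0.10 in TFEB-TG (adjusted p = 0.0202) and 0.50 ± 0.09 in TFEB-wt (adjusted p = 0.000511, edgeR), whereas Knstrn had 0.40 ± 0.12 in TFEB-TG (adjusted p = 0.0621) and 0.68 ± 0.11 in TFEB-wt (adjusted p = 5.12e-05, edgeR). Among the earlier steps, 3 of 4 nucleotide supply genes rose in TFEB-TG and all 4 in TFEB-wt, 2 and 3 of 10 replication genes, and 1 of 6 G1/S genes in each, Uhrf1. Rrm2 had a log2 fold change of 0.36 ± 0.09 in TFEB-TG (adjusted p = 0.0211) and 0.38 ± 0.08 in TFEB-wt (adjusted p = 0.00192, edgeR). Mcm6 rose in TFEB-TG (0.41 ± 0.07, adjusted p = 0.000804), against 0.18 ± 0.06 in TFEB-wt (adjusted p = 0.0753, edgeR). Pcna stayed at 0.01 ± 0.06 and 0.07 ± 0.06. Knstrn, Tpx2, Nusap1, Kif23 (a kinesin of the central spindle) and Kif20a were higher with Cre in each of the 18 pairs, 5 of the 59 genes, where 0.477% of all genes were.

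Other cell cycle lists and cell type markers were read from the same fits. Of 30 other mitosis genes 6 rose in TFEB-TG, among them the kinase Melk (0.92) and the kinetochore protein Nuf2 (0.71), and 16 rose in TFEB-wt, among them the checkpoint kinase Ttk (0.72) and the spindle protein Ckap2l (0.69). Of 34 other replication genes 2 rose in TFEB-TG and 5 in TFEB-wt, both with DNA ligase Lig1 (0.44 and 0.48). Of 20 G1 cyclins, their kinases and E2F factors 2 rose in TFEB-TG, the cyclin Ccnd1 (0.56 ± 0.13, adjusted p = 0.0144) and Myc (0.28 ± 0.08, adjusted p = 0.0481, edgeR). In TFEB-wt 3 did, Ccnd2 (1.05 ± 0.09, adjusted p = 1.40e-08), Ccnd1 (0.68 ± 0.12, adjusted p = 0.000204, edgeR) and Myc. Of 8 inhibitors and pocket proteins none rose in TFEB-TG and Cdkn1a (p21) did in TFEB-wt (0.24 ± 0.06, adjusted p = 0.00453, edgeR). Among monocyte markers Ly6c2, Plac8, Chil3 and F10 fell in TFEB-TG and in TFEB-wt, and Vcan fell in TFEB-wt. Of 4 neutrophil markers S100a8 and S100a9 fell in TFEB-wt, both near the floor, with medians of 1.08 and 0.402 CPM over the 36 libraries. Of 8 resident macrophage markers Timd4, Lyve1, Folr2 and Vsig4 fell in TFEB-TG, and the B cell markers Cd79b and Ighm rose in TFEB-wt. There Batf3 and the stress gene Junb also rose, and Itgam and the mural marker Acta2 fell. In CCR2neg cells the summed monocyte markers were at 164 to 358 CPM in mac-TFEB, against 295 to 4086 CPM in TFEB-TG Cre-neg libraries (295 to 421 CPM without the library that stands apart), and at 125 to 274 CPM in CX3CR1-Cre, against 194 to 1231 CPM in TFEB-wt Cre-neg libraries. Their part in the cell cycle difference was not tested.

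In mac-TFEB over CX3CR1-Cre CCR2neg cells the same lists gave 3 replication genes that rose. They were the checkpoint mediator Clspn (1.90 ± 0.47, adjusted p = 0.0305, edgeR), the chromatin assembly subunit Chaf1b (0.89) and the clamp loader subunit Rfc4 (0.84). The histone mRNA binding protein Slbp fell (-0.43 ± 0.11, adjusted p = 0.0484, edgeR). No gene was called among the other 4 lists, whose medians were 0.70 for other mitosis genes, 0.12 for G1 cyclins and E2F factors, -0.04 for inhibitors and pocket proteins and -0.24 for macrophage growth control, while the 34 replication genes had a median of 0.50. In TFEB-TG Cre-neg over TFEB-wt Cre-neg cells no gene of these lists was called in either fraction.

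The last question is how the CCR2pos and CCR2neg fractions differ, averaged over the 4 genotype and Cre groups. Here 6 of the 59 genes fell in CCR2pos cells, where 6.41% of all genes fell, and none rose, where 7.45% of all genes rose. The count that fell is not far above the share of all genes, so it does not by itself set the 59 genes apart. All 6 were of mitotic roles, namely Kif20a, Ccnb2, Cenpf, Cenpe, Kif20b and Smc4. Ccnb2 lies on chromosome 9 (70407692 to 70421547). In mac-TFEB cells it had 35.6 ± 10.3 CPM in the CCR2pos and 53.4 ± 12.5 CPM in the CCR2neg fraction (SD, n = 4 each). In CX3CR1-Cre cells it averaged 25.0 ± 6.18 CPM in the CCR2pos and 32.3 ± 5.77 CPM in the CCR2neg fraction (n = 5 each). In TFEB-TG Cre-neg cells it was 26.9 ± 7.78 against 40.9 ± 11.8 CPM, and in TFEB-wt Cre-neg cells 16.4 ± 2.37 against 24.3 ± 6.04 CPM. The CCR2pos mean was thus the lower in all 4 groups, and the averaged log2 fold change was -0.46 ± 0.12 (adjusted p = 0.00650, edgeR).

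The other 5 had log2 fold changes of -0.17 to -0.50. Cenpf had 11.7 ± 3.07 CPM in CCR2pos mac-TFEB cells, against 16.7 ± 3.69 CPM in CCR2neg ones, and 5.48 ± 1.62 CPM against 7.65 ± 2.16 CPM in TFEB-wt Cre-neg cells (SD, n = 4 and 5). Its log2 fold change was -0.50 ± 0.13 (adjusted p = 0.00677, edgeR), Kif20a had -0.46 ± 0.11 (adjusted p = 0.00342), Cenpe -0.34 ± 0.12 (adjusted p = 0.0423), the kinesin Kif20b -0.33 ± 0.11 (adjusted p = 0.0381) and the condensin ATPase Smc4 -0.17 ± 0.05 (adjusted p = 0.0255, edgeR). The median was 0.03 for S-phase genes, -0.16 for mitotic genes, -0.09 for all 59 and -0.02 for all genes, and the difference between the roles was not tested. Cdt1 (0.30, adjusted p = 0.0940) and Mcm4 (0.21, adjusted p = 0.107, edgeR) had positive values and did not pass. With the label as a block both rose in CCR2pos cells, Cdt1 by 0.30 ± 0.09 (adjusted p = 0.0144) and Mcm4 by 0.22 ± 0.07 (adjusted p = 0.0270, edgeR), where 11.3% of all genes rose. No other of the 59 genes rose, so the share that rose is smaller than that of all genes. The same fit called 12 genes lower, where 9.85% of all genes fell. They were the 6 above with Ccnb1, Knstrn, Tpx2, Mki67, Kif23 and 1 gene of an S-phase role, the thymidylate synthase Tyms (-0.21 ± 0.06, adjusted p = 0.0153, edgeR). Without mac-TFEB CCR2neg library 4 the calls were 3. Without the library that stands apart 5 genes fell and 1 rose, Cdt1, and with the block 11 fell and 3 rose. For the counts with a library left out the share of all genes is not given.

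Within single groups no gene was called between the fractions, where 0.391% of all genes rose and 0.148% fell in mac-TFEB, 0.594% and 0.203% in CX3CR1-Cre, 2.47% and 0.789% in TFEB-TG Cre-neg and 1.53% and 0.821% in TFEB-wt Cre-neg cells. Same-numbered libraries deviated together in the first 3 of these comparisons, and with the label as a block Ccnb2 (-0.56 ± 0.16), Cenpe (-0.53 ± 0.15) and Kif20a (-0.55 ± 0.15) fell in mac-TFEB CCR2pos cells and none rose (1.40% of all genes fell and 2.36% rose). With the block Rrm2 rose in CX3CR1-Cre CCR2pos cells (0.47 ± 0.12, adjusted p = 0.0133, edgeR; 2.70% of all genes rose). In TFEB-TG Cre-neg CCR2pos cells Cdt1 rose (0.73 ± 0.19), where 6.26% of all genes rose, and Ccnb2 (-0.53 ± 0.16), Cenpe (-0.52 ± 0.15) and Kif20a (-0.73 ± 0.16) fell, where 3.34% of all genes fell. Without the library that stands apart the block gave 3 calls in these cells, Cdt1 and Mcm2 higher and Kif20a lower. Without both the block and that library 1 gene was called, Cdt1. These counts, too, stand without the share of all genes. Between the fractions the monocyte markers Ccr2, Ly6c2, Plac8 and Itga4 rose and the resident markers Timd4, Lyve1, Cd163 and Vsig4 fell, while Mrc1 rose. Of the other cell cycle lists Cdkn1a (0.28), E2f2 (0.55), Cks2 (0.35) and Pttg1 (0.19) rose in CCR2pos cells and Cdkn2c (-0.36) and Cdc25b (-0.28) fell.

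**Figure D5:**
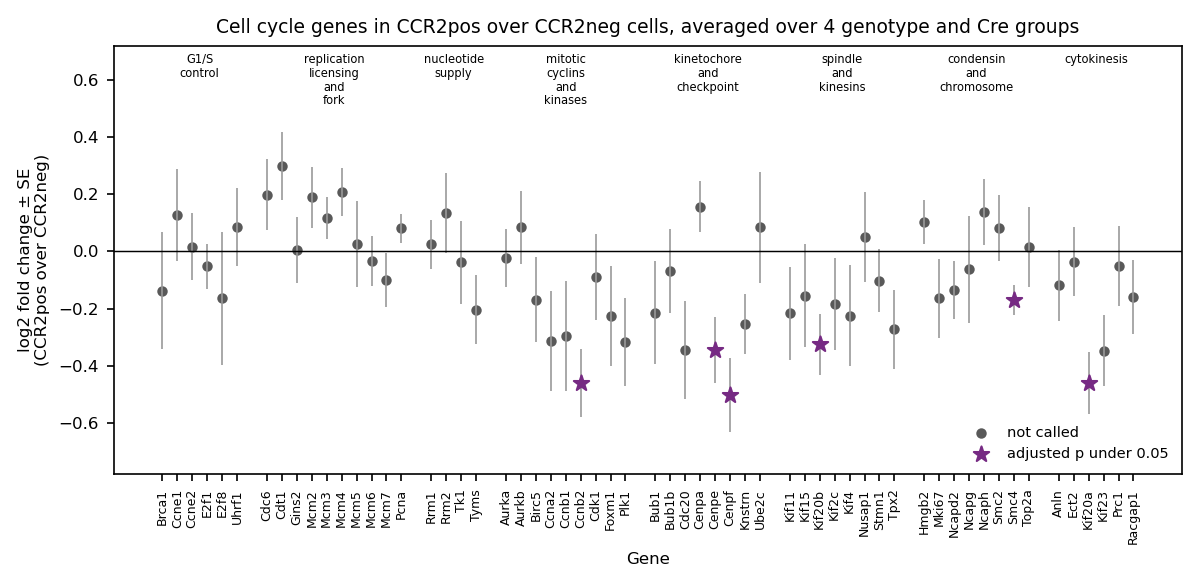
log2 fold change ± SE of CCR2pos over CCR2neg cells (y axis), averaged over mac-TFEB, CX3CR1-Cre, TFEB-TG Cre-neg and TFEB-wt Cre-neg groups, for the 59 genes by role (x axis); stars mark an adjusted p under 0.05 by edgeR. The 6 stars lie below 0, from -0.17 to -0.50, and all are genes of mitotic roles.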

How the data were processed

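The authors deposited raw counts per gene, as 1 table of whole numbers. Per the submitters' processing notes, reads went through Bowtie2, TopHat and TopHat2 (2.0.10) and HTSeq on the build GRCm38; DESeq and edgeR are also named, all without parameters. Per the labels' protocols, SMARTer cDNA was sequenced as single reads of 50 bases without strand. Its name says that it was filtered, but not how. Every gene reached at least 1.01 CPM in its fourth-highest library, and rarer genes were not analysed here. Column names gave each sample.

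CPM (counts scaled to the library's total) and log2 values were computed here. Genes were tested with the quasi-likelihood test of edgeR 4.0.16 under R 4.3.3 (with limma 3.58.1). All 36 libraries entered 1 model with a mean for each of the 8 groups, scaled by TMM, and p-values were adjusted by Benjamini-Hochberg over 12795 genes. A gene was called, and is said to have risen or fallen, at an adjusted p under 0.05. Counts at an unadjusted p under 0.05 carry the share of all genes only over the label sums. Counts of calls with a library or label left out carry no such share. Both kinds of count are descriptive. The expression filter (minimum count 10) removed no gene. Standard errors were taken as log2 fold change over the square root of F. The script was tested on simulated counts. Correlations used log2(CPM + 0.5). Depth was 13797484 to 32645783 counts, and the common dispersion of 0.0943 between libraries, not counting error, set the precision of all but the rarest genes. The 64 pairs of libraries within groups differed by more than counting error (chi-square over degrees of freedom 20.3 to 121), so each counted once.

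Samples were grouped by genotype, CCR2 fraction and Cre status. Pairing by label number was taken where every same-numbered pair of libraries deviated together (correlation of deviations from group means above 0.1). This held in the 4 Cre comparisons (lowest 0.140, 0.243, 0.303 and 0.333). It also held in the fraction comparisons of mac-TFEB, CX3CR1-Cre and TFEB-TG Cre-neg cells (0.383, 0.175 and 0.311). In TFEB-wt Cre-neg cells 4 of 5 pairs passed (lowest 0.0958, mean 0.329), so the rule was narrowly missed. The block fit averaged over groups paired these libraries too. Between genotypes the rule did not hold, and the mean correlations were negative.

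The members, gene lists and comparisons were chosen with earlier results of these data known. Named in any comparison are Mki67, Top2a, Cdk1, Ccnb1, Ccna2, Rrm2, Mcm2 to Mcm7 and Pcna, every member called and the members of smallest p by role. The result of 1 marker gene is not reported here. Other members, and genes of other lists, are named for their level, spread, correlation or call, after their values were seen. Reads shared with a gene on the other strand make Gins2 (67.3% of exonic bases), Kif20a (29.3%), Ube2c (22.8%), Ccne2 (17.4%), Kif4 (15.1%), Ncapg (13.4%), Ccna2 (12.5%), E2f8 (11.2%) and Prc1 (11.1%) uncertain. Alternatives were DESeq2 1.42.0 (size factors and Wald test), a filter of 1 CPM in 9 libraries, no filter, limma-voom with quality weights, an Xist term, a random effect of label (correlation 0.266), the blocks, the libraries of a comparison alone and leaving out each library. Gene positions and exonic lengths come from GENCODE (GRCm38), and promoter sequences from RefSeq.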

Additional observations from a re-analysis of the deposited data

Results flagged for a closer look

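Of 128 tests of a library against the rest of its group, 1 found a library far from the others, and chance gives about 1 in 20 such groups. Mcm3, a subunit of the replicative helicase, was at 110.7 CPM in TFEB-wt 5 of the CX3CR1-Cre CCR2pos group, against 88.9 to 94.8 CPM in its other 4 libraries, a gap of 0.731 of the group's range.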

How the results depend on the processing

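Calls of the 59 genes moved with the test, while DESeq2 size factors, a stricter filter and no filter kept every count of calls within 1.5 times. The counts in this section stand without the share of all genes that each fit called. A larger count may therefore reflect a fit that calls more genes of any kind. For mac-TFEB over CX3CR1-Cre CCR2neg cells (4 calls) there were 15 with an Xist term, 14 with the number as replicate block, 36 by limma-voom, 20 with the random effect, 12 by DESeq2, 0 in a fit to these libraries alone, and 0 to 10 with a library left out. For TFEB-TG over TFEB-wt Cre-neg CCR2neg cells (2 calls) these gave 6, 5, 5, 4, 7, 0 and 0 to 6, and in the CCR2pos fraction the libraries alone gave 1. Between genotypes same-numbered libraries did not deviate together (mean correlations -0.154 to -0.0740), so that block pairs nothing.

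For CCR2pos over CCR2neg cells averaged over groups (6 calls) the replicate block gave 14 (2 higher, 12 lower; also 14 without the library TFEB-TG 1 CCR2neg Cre-neg) and the random effect 10, with 3 to 7 when a library was left out. Within groups, where no gene was called, the replicate block gave 3 in mac-TFEB, 1 in CX3CR1-Cre, 4 in TFEB-TG Cre-neg (3 without that library) and 1 in TFEB-wt Cre-neg cells (Ccnb2). The random effect gave 1 in mac-TFEB and 2 in TFEB-TG Cre-neg cells, where DESeq2 gave 1 and a left-out library 0 to 1.

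For Cre over Cre-neg cells of TFEB-TG (0 calls in CCR2neg) the block gave 7 (1 without that library) and the random effect 2. In TFEB-wt CCR2neg cells (1 call) the block gave 17, limma-voom 2, the random effect 9 and a left-out library 0 to 1, and in TFEB-wt CCR2pos cells the block gave 5. The averages with the block had 25 calls in TFEB-TG and 33 in TFEB-wt, against 0 and 4 without it, and 6 to 29 and 16 to 34 with a label left out; in TFEB-TG 13 were called without that library. Over 9 label sums (0 calls) DESeq2 gave 21, the average over 36 libraries 45 and a left-out label 0 to 1. Of 1002 values of called single genes under alternatives, 700 kept the call, 302 were no longer past the threshold and none turned its direction. The fits with the block and without that library were chosen after the data were seen. The causes were not tested. Depth limits the rarest members alone, such as E2f8 with 1 read in 1 library.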
